A study of Mus musculus with 12 samples.

Results

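The MYC, MAX and MXD network is a small family of transcription factors that meet at the E-box, a short DNA motif. The 10 members described here, of 24906 genes in each deposited table, were taken as a fixed list by gene symbol: the activators Myc, Mycn and Mycl, the shared partner Max, the antagonists Mxd1, Mxd3, Mxd4, Mxi1 and Mnt, and the MAX-like factor Mlx. All 10 symbols were found in both tables.

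MYC proteins bind DNA only as a pair with MAX, and such pairs raise the transcription of genes for ribosome assembly, nucleotide synthesis and cell division. MXD proteins, MXI1 and MNT compete for the same MAX, and their pairs with it repress transcription through SIN3 corepressors. MLX pairs with MXD1, MXD4 and MNT and with the nutrient-sensing factors MLXIP and MLXIPL, and in intestinal epithelium Myc is known as a target of WNT signaling whose transcription TGFβ signaling represses through SMAD complexes.

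RNA-Seq was performed on 12 libraries of mouse small intestine tumor organoids, which are 3D epithelial cultures, all labelled Smad4KO;BRAFV600E/+;pINDUCER-SMAD4. The tumors came from mice with floxed Smad4, a BRAFV600E allele and Villin-CreERT2, which acts in intestinal epithelium, and the lentiviral pINDUCER-SMAD4 construct expresses SMAD4 when doxycycline (dox) is given. In BME, a basement membrane extract for 3D growth, there were 3 untreated libraries (lines 682, 700 and 889), 2 libraries given 4 µg/mL dox for 48 h (lines 700 and 889) and 1 dox library of line 682 whose treatment carries the word mock, while its title and genotype read like those of an induced library. On plastic, without BME, lines 560, 700 and 889 each gave 1 untreated and 1 dox library, 3 of each kind. All groups thus shared the knockout, the BRAF allele and the construct, and each line gave 1 library per condition. Here the mock library stands with the untreated ones in BME (4 controls), which matches the group sizes of the study's design.

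Smad4 was measured first, as a check of the labels. FPKM stands for fragments per kilobase of transcript, scaled per library. In BME, Smad4 was at 8.88, 6.53 and 6.23 FPKM in untreated lines 682, 700 and 889. It was at 10.3 in the mock library there, and at 17.2 and 27.3 in the dox libraries of lines 700 and 889. On plastic, Smad4 was at 1.54, 2.99 and 4.76 FPKM in untreated lines 560, 700 and 889 and at 73.6, 18.1 and 48.9 with dox. Every dox library was above every control library of its environment, and the mock library differed from its untreated partner by 0.19 (log2). The tables hold 1 value per gene, so transcripts of the construct and of the edited gene cannot be told apart.

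Depth was 14533534 to 16329337 rebuilt reads in the BME libraries, and 17049344 to 21101832 in those from plastic. Epithelial markers summed to 4427 to 17874 FPKM, with 9 to 11 of 11 at 1 FPKM or more in a library. In BME their sum was 8126 to 10177 in the dox libraries against 4427 to 5625 in the untreated ones, and the part of this in the member values was not tested. The summed markers were at 0.114 to 5.41 FPKM for fibroblasts (0 to 1 of 6 at 1 FPKM or more), 3.57 to 39.2 for immune cells (1 to 2 of 5) and 0 to 3.65 for endothelium (0 to 1 of 4). Within the immune sum, Cd68 was at 2.70 to 38.7 FPKM, and Csf1r, like Cd68 a gene of macrophages, was at 0.152 to 1.26 FPKM and above 0 in all 12 libraries. The highest immune sum, 39.2, was in the dox library of line 889 on plastic, against 3.57 in its untreated partner. In lines 560 and 700 on plastic the sum was lower with dox, at 13.0 against 15.9 and 3.73 against 5.69. Ptprc and Cd3e were at most at 0.0958 and 0.0566 FPKM, and the part of immune cells in the member values was not tested. In bulk libraries such as these, fewer cells of a type and less RNA per cell cannot be told apart.

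The members are spread over 8 chromosomes in the mouse build NCBIM37 (mm9), the build named in the submitters' notes. Myc lies at chr15:61816946-61821929 and Mycl, annotated as Mycl1, at chr4:122672895-122679728, both on the plus strand, and Mycn at chr12:12942902-12948720 on the minus strand. Max lies at chr12:78038256-78063235, Mxd1 at chr6:86597038-86619153, Mxd3 at chr13:55426529-55431119 and Mxd4 at chr5:34516536-34530369, all on the minus strand. Mxi1 lies at chr19:53384996-53450300, Mnt at chr11:74644422-74659227 and Mlx at chr11:100948591-100953521, all on the plus strand. All 10 are annotated as protein coding genes, and each value below is for the whole gene.

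The promoters of Mxd1, Mxi1, Mnt and Mlx are shown because all dox libraries lay above all untreated libraries on plastic for these 4 members. RefSeq windows (table build GRCm38.p6) were found for 9 of 10 members, and each of the 4 sequences matched 1 place in NCBIM37. Each sequence below runs 5′ to 3′ on the gene's strand, covers 230 bases and stops short of the RefSeq start. Capitals mark the E-box CACGTG, which reads alike on both strands, or the SMAD motif CAGAC and its reverse complement GTCTG. The windows lie at chr6:86619174-86619403 (Mxd1, minus strand), chr19:53384746-53384975 (the first of 3 Mxi1 windows, plus strand), chr11:74644176-74644405 (Mnt, plus strand) and chr11:100948354-100948583 (Mlx, plus strand).
Mxd1: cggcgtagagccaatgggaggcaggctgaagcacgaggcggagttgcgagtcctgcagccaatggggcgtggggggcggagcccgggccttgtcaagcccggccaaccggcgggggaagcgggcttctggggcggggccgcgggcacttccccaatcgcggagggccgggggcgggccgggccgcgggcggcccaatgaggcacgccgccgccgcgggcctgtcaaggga
Mxi1: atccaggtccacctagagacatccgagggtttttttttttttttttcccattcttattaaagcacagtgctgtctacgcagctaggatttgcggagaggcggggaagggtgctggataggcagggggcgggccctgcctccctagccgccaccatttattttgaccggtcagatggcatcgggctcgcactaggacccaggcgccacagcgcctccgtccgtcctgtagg
Mnt: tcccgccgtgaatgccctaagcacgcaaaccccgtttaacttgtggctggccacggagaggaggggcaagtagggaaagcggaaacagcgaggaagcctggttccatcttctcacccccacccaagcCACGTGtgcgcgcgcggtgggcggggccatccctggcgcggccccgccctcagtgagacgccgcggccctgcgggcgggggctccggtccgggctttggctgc
Mlx: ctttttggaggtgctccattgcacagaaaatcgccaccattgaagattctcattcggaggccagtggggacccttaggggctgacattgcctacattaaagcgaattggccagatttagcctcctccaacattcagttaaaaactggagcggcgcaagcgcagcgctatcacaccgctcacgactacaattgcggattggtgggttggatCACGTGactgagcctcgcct

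Of these 4 windows, Mnt held 1 E-box, beginning 123 bases before the start, and Mlx held 1, beginning 40 bases before it. Over the full 250 bases before the start, 3 of 11 member windows held an E-box (Mxd4, Mnt and Mlx), against 6.02% of 32851 windows in the table. The SMAD motif was in 4 of 11 member windows (Mycn, Max and the other 2 Mxi1 windows), against 42.2% of all windows, and in none of the 4 shown. The motifs overlap in no member window. A match is a description of letters, and no match says only that these letters are not in the window.

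Myc was the most abundant of the 10 members in 12 of 12 libraries, on the FPKM scale that corrects for length. It stood between the 94.2 and the 98.6 percentile of the genes above 0 in its library. Max ranked 2 to 3 of 10, Mxi1 and Mlx 2 to 5, Mxd4 3 to 6 and Mnt 5 to 7, so these neighbours traded places between libraries. Mxd1 and Mycl ranked 6 to 9, Mxd3 8 to 10 and Mycn 9 to 10. The tables were normalized separately by the authors, so levels were not tested across BME and plastic.

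**Figure D1:**
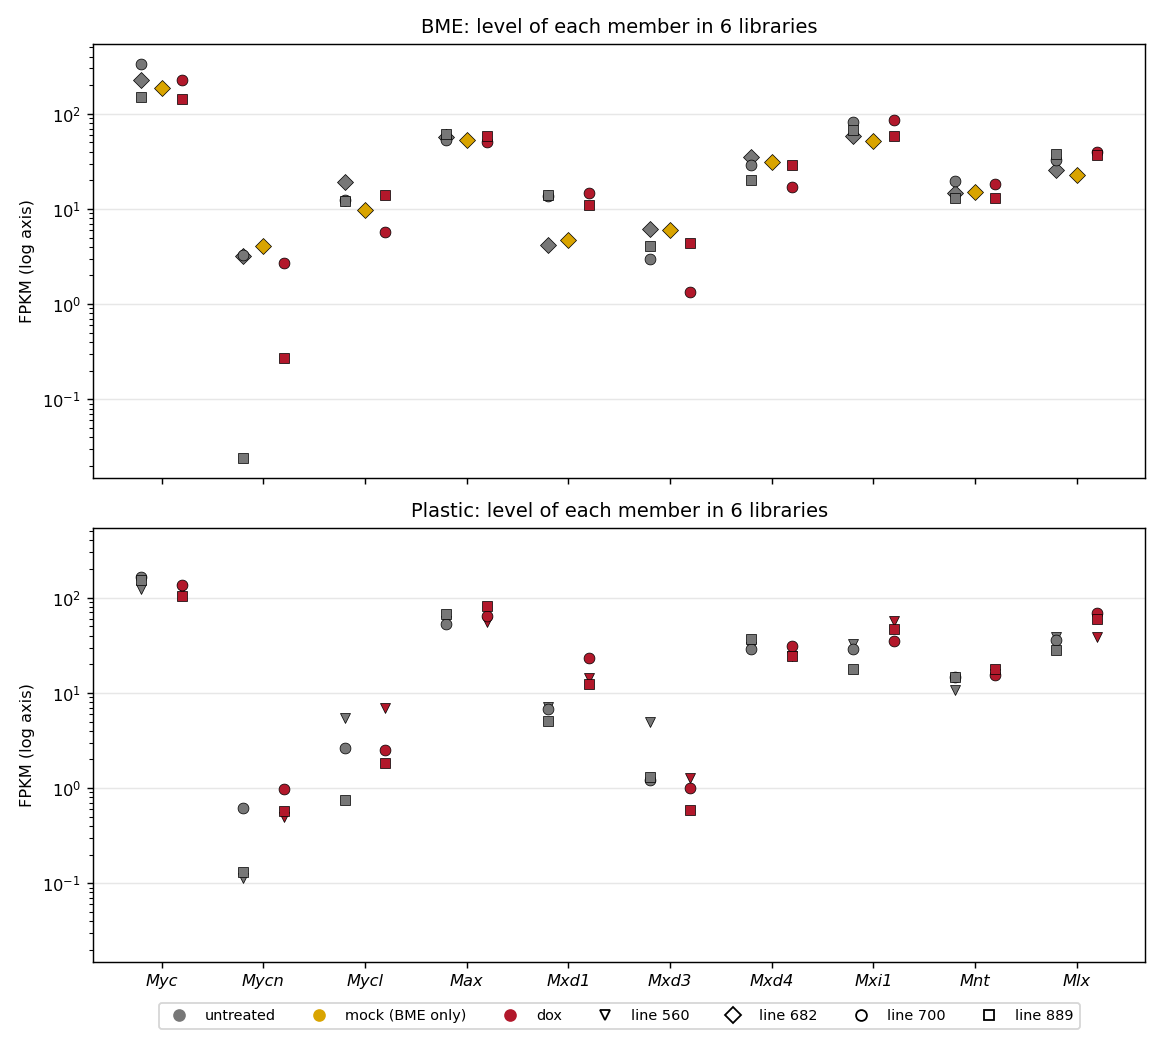
Level of each of the 10 members in FPKM (log axis) in the 6 BME libraries (top) and the 6 plastic libraries (bottom). Color gives the treatment, shape the organoid line and each point is 1 library. Myc is highest in every library, Mycn is lowest or next to lowest in each, and on plastic the dox points of Mxd1, at 12.5 to 23.1 FPKM, all lie above the untreated points, at 5.07 to 7.05.

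The first comparison asked how the network differed between dox and control libraries in BME. None of the 10 members was called with dox (limma, adjusted p under 0.05 and a change over 1 on the log2 scale), and none reached an unadjusted p under 0.05. In BME, 0 members were higher in both dox pairs (27.2% of all genes tested) and 0 had all dox libraries above all controls (6.33%) or below them (5.83%). Smad4 itself was not called by the limma rule either (change 1.36, limma adjusted p 0.959), so a gene can be higher with dox and not be called. With limma-voom on rebuilt reads the called count of members was also 0 of 10. Over 12996 genes tested, 0.0231% were called higher and 0% lower, and 2.62% and 1.47% reached that unadjusted p as higher and lower.

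Among the activators, Myc was at 229, 336 and 149.6 FPKM in untreated lines 682, 700 and 889 in BME, at 189 in the mock library, and at 228 and 144 with dox in lines 700 and 889. Each treated library was below its own untreated partner, the mock library included, yet the groups overlapped because the lines differed more than the treatment. The change was -0.25 (SE 0.35, limma adjusted p 0.965), and the pairs gave -0.56 for line 700, -0.05 for line 889 and -0.28 for the mock pair. Without the dox library of line 889 the change over groups was 0.08, and without that of line 700 it was -0.58.

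Mycl, the MYC paralog first known from lung cancer, was at 19.3, 12.4 and 12.2 FPKM in untreated lines 682, 700 and 889 in BME, at 9.84 in the mock library and at 5.76 and 13.9 with dox. The level was lower in line 700 by 0.99 on the log2 scale and in the mock pair by 0.91, and higher by 0.18 in line 889. Its change was -0.49 (SE 0.38, limma adjusted p 0.959). Without the dox library of line 700 the change was 0.09, and without that of line 889 it was -1.06.

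Mycn, the paralog amplified in neuroblastoma, separated the lines rather than the treatments. In BME it was at 3.19 and 4.05 FPKM in the untreated and mock libraries of line 682 and at 3.31 and 2.69 in the untreated and dox libraries of line 700. In line 889 it was at 0.0242 FPKM untreated and 0.273 with dox, which rest on 1 and 11 rebuilt reads. The change over groups was -0.52 (SE 0.76, limma adjusted p 0.965), and blocking on the line gave 0.04.

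Max is the shared partner of the MYC and MXD proteins. Its level in BME was 56.5, 53.5 and 60.7 FPKM untreated, 53.3 in the mock library and 50.8 and 58.0 with dox, a change of -0.04 (SE 0.13, limma adjusted p 0.985). Myc, Max and Mnt were lower in both dox pairs in BME (3 of 10 members, against 29.5% of all genes tested), and the sizes for Max and Mnt were at most 0.10 on the log2 scale.

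The antagonists also overlapped between groups in BME. Mxd1, which is induced as cells leave the cycle and differentiate, was at 4.18 and 4.72 FPKM in the untreated and mock libraries of line 682, at 13.8 and 14.8 in untreated and dox line 700, and at 13.9 and 11.1 in untreated and dox line 889. Line 682 was thus low whatever its treatment, and it enters only the control arm. The change over groups was 0.62 (SE 0.52, limma adjusted p 0.959), and -0.10 (SE 0.15) when blocked on the line.

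Mxi1, a further MXD family member, was at 58.4, 82.7 and 67.4 FPKM untreated in lines 682, 700 and 889 in BME, at 52.4 in the mock library and at 86.5 and 58.1 with dox. Its change was 0.14 (SE 0.24, limma adjusted p 0.970) and turned to -0.07 with the block. Mnt, the broadly expressed antagonist, was at 14.6, 19.7 and 13.0 FPKM untreated, 15.0 in the mock library and 18.3 and 13.0 with dox, a change of -0.00 (SE 0.22, limma adjusted p 0.999).

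The dox pairs of lines 700 and 889 differed in direction for Mxd3 and Mxd4. Mxd3, the MXD member found in cycling cells, was at 6.09, 2.999 and 4.13 FPKM untreated, 6.01 in the mock library and 1.36 and 4.34 with dox in lines 700 and 889. Mxd4 was at 34.9, 29.2 and 19.97 FPKM untreated, 31.4 in the mock library and 17.0 and 29.1 with dox. Both were lower with dox in line 700 (-0.76 and -0.74) and higher in line 889 (0.06 and 0.52), and their changes were -0.67 (SE 0.40) and -0.33 (SE 0.29). Without the dox library of line 700 the change of Mxd3 was -0.08, and without that of line 889 it was -1.26. For Mxd4 the same settings gave 0.04 and -0.70.

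Mlx was at 25.6, 33.0 and 38.3 FPKM in untreated lines 682, 700 and 889 in BME, at 22.9 in the mock library and at 39.8 and 36.5 with dox. Line 682 was again lowest in both of its libraries. The change was 0.37 (SE 0.23, limma adjusted p 0.959), and blocking on the line gave 0.10.

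The second comparison asked the same on plastic, where no library carries the word mock. The part of dox itself and that of SMAD4 thus cannot be told apart there. All 3 dox libraries were above all 3 untreated libraries for Mxd1, Mxi1, Mnt and Mlx (4 of the 9 members tested), against 7.87% of the 12333 genes tested. It follows that these 4 were higher in every pair, as were 18.6% of all genes tested. No member was called (0.0243% of all genes called higher and 0.00811% lower, and 0 of 9 members with limma-voom), and 3 reached an unadjusted p under 0.05 as higher (4.56% of all genes) and 0 as lower (3.73%). Blocking on the line left 2 at that p, Mxd1 and Mxi1. Mycn was left out of the fit because its mean was under 0.5 FPKM. Smad4 itself was not called on plastic either (change 3.42, limma adjusted p 0.162).

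Mxd1 showed the largest change of the members tested on plastic. It was at 7.05, 6.81 and 5.07 FPKM in untreated lines 560, 700 and 889 and at 14.3, 23.1 and 12.5 with dox. The lowest dox library was therefore above the highest untreated one, and the level was 2.03, 3.40 and 2.46 times that of the untreated partner. The change was 1.24 (SE 0.28, unadjusted p 0.00337, limma adjusted p 0.322), and blocking on the line gave an adjusted p of 0.158.

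Mxi1 was at 32.7, 29.0 and 18.0 FPKM untreated on plastic and at 57.5, 35.4 and 47.5 with dox in lines 560, 700 and 889. The groups did not overlap, and the level was 1.76, 1.22 and 2.64 times that of the untreated partner, least in line 700. The change was 0.81 (SE 0.30, unadjusted p 0.0308, limma adjusted p 0.567).

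Mlx was at 38.4, 36.2 and 28.3 FPKM untreated and at 38.8, 69.5 and 59.5 with dox. Lines 700 and 889 were 1.92 and 2.10 times as high with dox, while line 560 differed by 0.02 on the log2 scale, so the separation of the groups rests on a margin of under 1 FPKM in that line. The change was 0.66 (SE 0.27, unadjusted p 0.0447, limma adjusted p 0.589), with an unadjusted p of 0.0524 when blocked on the line, and leaving out 1 library at a time moved it between 0.49 and 0.90.

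Mnt was at 10.7, 14.8 and 14.8 FPKM untreated and 15.9, 15.5 and 17.8 with dox, with a change of 0.28 (SE 0.20, limma adjusted p 0.785). The remaining antagonists were on the other side of 0. Mxd3 was at 4.95, 1.22 and 1.31 FPKM untreated and 1.27, 1.00 and 0.592 with dox, lower in each pair, with a change of -0.69 (SE 0.43, limma adjusted p 0.736). Mxd4 was at 30.7, 28.9 and 37.0 FPKM untreated and 24.3, 31.0 and 24.2 with dox, higher in line 700 and lower in the others.

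The activators overlapped between groups on plastic. Myc was at 125, 166 and 154 FPKM untreated and 124, 136 and 104 with dox in lines 560, 700 and 889. It was lower in each pair, by 0.01, 0.29 and 0.56 on the log2 scale, and line 560, the line with the highest Smad4 under dox, had the least difference. The change was -0.29 (SE 0.21, limma adjusted p 0.785), and Myc and Mxd3 were the 2 of 9 members lower in every pair, against 18.7% of all genes.

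Mycl was at 5.50, 2.65 and 0.752 FPKM untreated and 6.92, 2.52 and 1.83 with dox on plastic, and the spread between lines exceeded any change (0.31, SE 0.58). Mycn was at 0.115, 0.622 and 0.132 FPKM untreated and 0.495, 0.977 and 0.571 with dox, on 6, 31 and 7 rebuilt reads untreated and 26, 42 and 23 with dox. It was higher in each pair, but an exact permutation test of the libraries gave p = 0.3 and the groups overlapped. Max was at 57.2, 52.4 and 68.1 FPKM untreated and 55.9, 63.9 and 81.3 with dox, a change of 0.17 (SE 0.22, limma adjusted p 0.889).

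**Figure D2:**
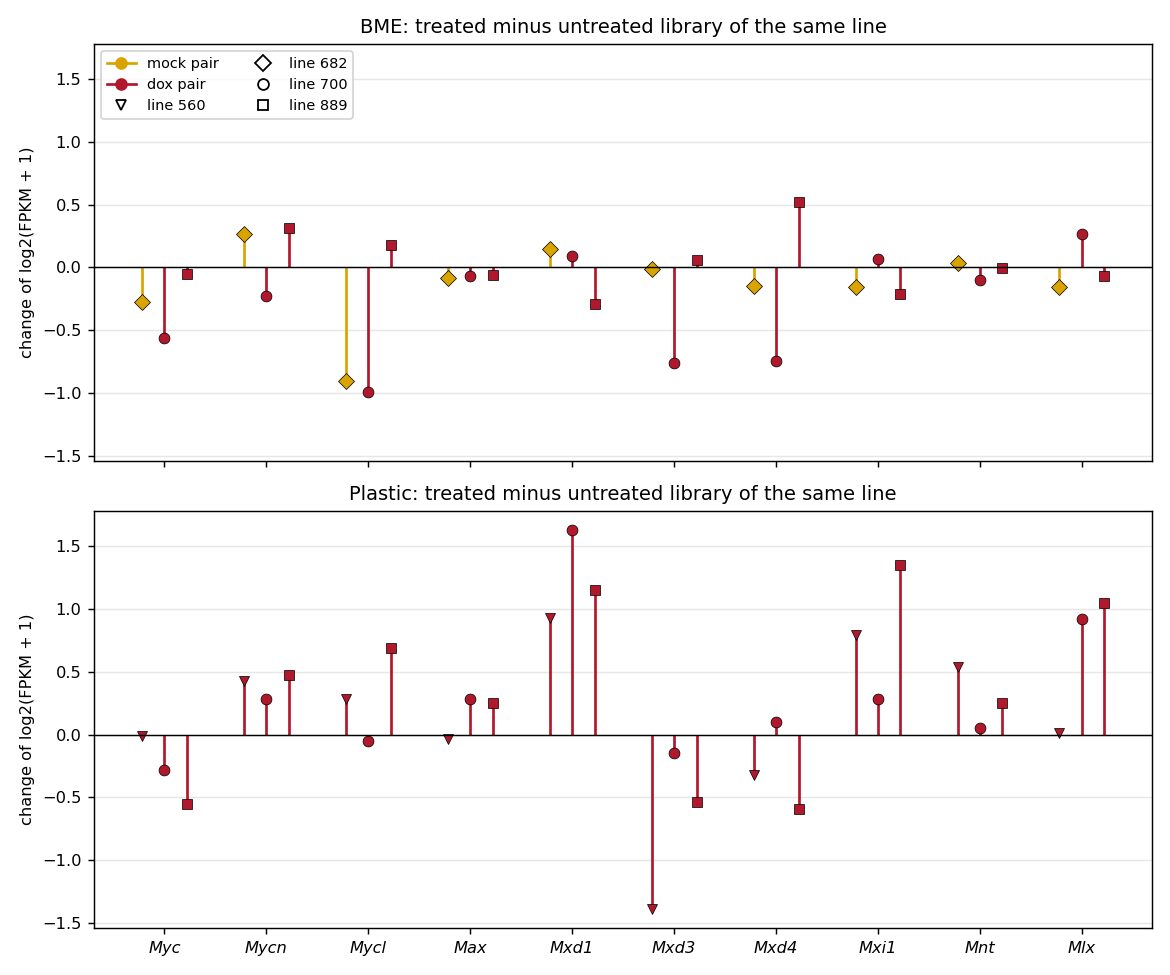
Change of log2(FPKM + 1) of each member from the untreated to the treated library of the same line, in BME (top) and on plastic (bottom), with 1 point per pair. The mock pair of line 682 is shown in yellow. On plastic the Mxd1 points lie at 0.93, 1.63 and 1.15, while in BME they lie at 0.14 for the mock pair and 0.09 and -0.29 for the dox pairs.

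The difference of the dox change between plastic and BME was then tested for the 9 members tested in both. None was called, and none of the 9 reached an unadjusted p under 0.05 (of 11977 genes, 0% were called in either direction, and 1.3% and 1.23% reached that p as more positive and more negative on plastic). Mxd1 had a difference of 0.61 (SE 0.62, limma adjusted p 1.00). Blocking on the line, which sets the low Mxd1 of line 682 aside, gave a difference of 1.34 (SE 0.28, unadjusted p 0.00179, limma adjusted p 0.765). For Mxi1 the difference was 0.67 (SE 0.40) without the block and 0.88 (SE 0.33, unadjusted p 0.0302, limma adjusted p 0.877) with it.

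In lines 700 and 889, which were measured in both environments, the changes of Mxd1 with dox were 0.09 and -0.29 in BME and 1.63 and 1.15 on plastic. Mxi1 gave 0.06 and -0.21 in BME and 0.28 and 1.35 on plastic, and Mlx 0.26 and -0.07 in BME and 0.92 and 1.05 on plastic. Smad4 in the same pairs gave 1.28 and 1.97 in BME and 2.26 and 3.12 on plastic. Between environments the plastic pairs had the larger values of Mxd1, Mxi1, Mlx and Smad4 in both lines, but between lines Mxd1 was the larger in line 700 and Smad4 in line 889, in BME and on plastic alike. Line 560 had the largest Smad4 change of the plastic pairs (4.88) and the smallest changes of Mxd1 (0.93) and Mlx (0.02), while for Mxi1 it had 0.79, between lines 700 and 889. The part of the Smad4 level in these member values was not tested.

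The balance of the network was described by the ratio of Myc to the summed FPKM of its 5 antagonists. On plastic the ratio was 1.45, 2.05 and 2.02 in untreated lines 560, 700 and 889 and 1.09, 1.28 and 1.014 with dox. All dox libraries were below all untreated ones, with a mean log2 ratio of 0.17 ± 0.17 (SD, n = 3) against 0.86 ± 0.28 (SD, n = 3). The difference of -0.69 gave p = 0.1 in an exact two-sided permutation test, and a design of 3 against 3 cannot go below this.

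In BME the ratio was 1.94, 2.27 and 1.26 untreated in lines 682, 700 and 889, 1.72 in the mock library and 1.65 and 1.25 with dox. The groups overlapped, and the difference of the log2 ratio was -0.29 (exact permutation p = 0.267). The mock pair differed by -0.17, the dox pair of line 700 by -0.46 and that of line 889 by -0.02.

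**Figure D3:**
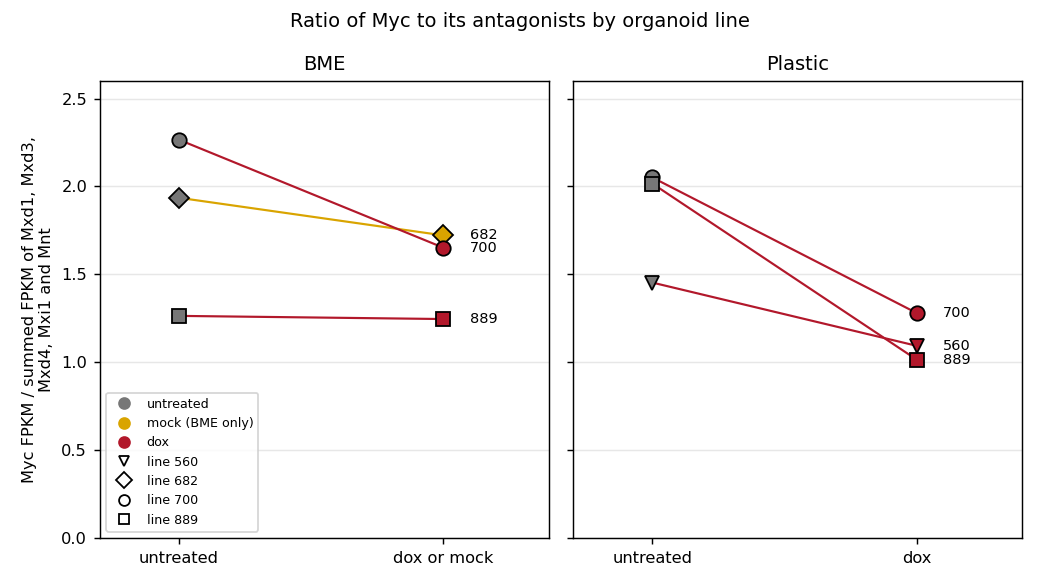
Ratio of Myc FPKM to the summed FPKM of Mxd1, Mxd3, Mxd4, Mxi1 and Mnt in each library, with a line joining the untreated and treated library of each organoid line (yellow for the mock pair). On plastic the ratio is 1.45 to 2.05 untreated and 1.014 to 1.28 with dox, and in BME the values overlap.

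Within the antagonist pool, Mxi1 was the largest antagonist in all 6 BME libraries, at 47.8% to 62.7% of the pool. On plastic Mxd1 held 6.66% to 8.43% of the pool untreated and 12.2% to 21.8% with dox, and the pool itself summed to 76.2 to 86.1 FPKM untreated and 103 to 113 with dox. Myc made up 49.8% to 67.2% of the summed FPKM of the MYC family and the 5 antagonists over both environments, and Max itself was at 0.107 to 0.389 times that sum, which leaves out other partners of MAX such as Mga. These are transcript levels, and protein amounts were not measured.

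The genes that MYC is known to induce were then examined as a fixed list of 50, which holds ribosome assembly factors, nucleotide and amino acid enzymes and chaperones. The direction of MYC targets in these libraries was known when the list was written, so the counts are a description. On plastic the list had a median change of -0.40, against 0.01 for all genes tested, with 44 genes lower and 6 higher. Of the 50, 33 were lower in every pair (18.7% of all genes), 22 had all dox libraries below all untreated ones (7.26%) and 10 reached an unadjusted p under 0.05 as lower (3.73%). None was called.

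In BME the median of the same 50 genes was -0.13, against -0.01 for all genes tested, and 29 were lower in both dox pairs (29.5% of all genes) while 6 had all dox libraries below all controls (5.83%). The mock pair of line 682 had a median of -0.23, with 42 of 50 genes lower, beside -0.27 for the dox pair of line 700 and -0.05 for that of line 889. The mock pair, whose Smad4 differed by 0.19, was thus within the range of the dox libraries in BME.

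Among MYC-induced genes, the mitochondrial serine enzyme Shmt2 was at 156, 94.7 and 121 FPKM untreated on plastic and 70.9, 60.6 and 73.6 with dox, without overlap (change -0.83, SE 0.24, limma adjusted p 0.463). Its cytosolic counterpart Shmt1 was lower in 5 of 5 dox pairs, with changes of -0.94 in both environments (SE 0.50 on plastic and 0.30 in BME). The amino acid transporter Slc7a5 was also lower in 5 of 5 dox pairs, with a change of -0.69 (SE 0.23) on plastic and -0.43 (SE 0.25) in BME. The mock pair was lower by 0.38 for each of these genes, Shmt1 and Slc7a5, against 0.21 and 0.11 in the BME dox pair of line 889 and 1.26 and 0.84 in that of line 700.

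Odc1, the polyamine enzyme that is a textbook MYC target, went the other way. It was at 175, 186 and 292 FPKM untreated on plastic and 423, 2335 and 1257 with dox, higher in 5 of 5 dox pairs over both environments (change 2.34, SE 0.62, limma adjusted p 0.415 on plastic and 0.86, SE 0.38 in BME). The mock pair was also higher for Odc1, by 0.51, beside 0.91 and 0.79 in the BME dox pairs of lines 700 and 889. The cap-binding factor Eif4e was higher in 5 of 5 pairs too, by 0.38 (SE 0.20) on plastic and 0.18 (SE 0.13) in BME, with -0.09 in the mock pair. Nme1, a nucleoside diphosphate kinase, was higher in 4 of 5.

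Of 9 genes that MYC is known to repress, 8 were tested. Their median change was 0.48 on plastic and 0.07 in BME, and 5 of 8 were higher in every plastic pair (18.6% of all genes). In BME the dox pairs of lines 700 and 889 had medians of -0.04 and -0.16, 4 of 8 genes were lower in both (29.5%) and 2 of 8 higher in both (27.2%), and blocking on the line gave -0.21. Cdkn1a, the cell cycle inhibitor p21, was at 167, 197 and 143 FPKM untreated on plastic and 422, 704 and 804 with dox, without overlap (change 1.88, SE 0.30, unadjusted p 0.00052, limma adjusted p 0.157). In BME Cdkn1a was at 177, 128 and 71.8 FPKM untreated in lines 682, 700 and 889, 565 and 208 with dox in lines 700 and 889, and 324 in the mock library, which was above the dox library of line 889.

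Cdkn2b, the inhibitor p15, which TGFβ signaling is known to induce, was at 64.7, 67.0 and 97.5 FPKM untreated on plastic and 44.0, 40.5 and 42.2 with dox. All dox libraries were below all untreated ones (change -0.82, SE 0.22, limma adjusted p 0.415), and Cdkn2b was lower in 5 of 5 dox pairs. In BME its change over groups was 0.13 (SE 0.48). The BME dox pairs of lines 700 and 889 gave -0.46 and -0.13, and the mock pair gave -0.22. The stress gene Gadd45a was higher in 5 of 5 pairs, with changes of 0.39 (SE 0.22) on plastic and 0.36 (SE 0.18) in BME.

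The 14 proliferation genes had a median change of -1.001 on plastic and -0.75 in BME, and 11 of 14 were lower in every dox pair in each environment (18.7% of all genes on plastic and 29.5% in BME). Without the dox library of line 700, the BME median was 0.01. The median was -1.01 in the dox pair of line 700 in BME but -0.08 in that of line 889 and -0.24 in the mock pair. On plastic it was -0.60, -1.08 and -1.21 in lines 560, 700 and 889. Top2a, Ccnb1 and Ccna2, which act in DNA untangling and mitotic entry, had plastic changes of -1.14, -1.07 and -1.13, and none was called.

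**Figure D4:**
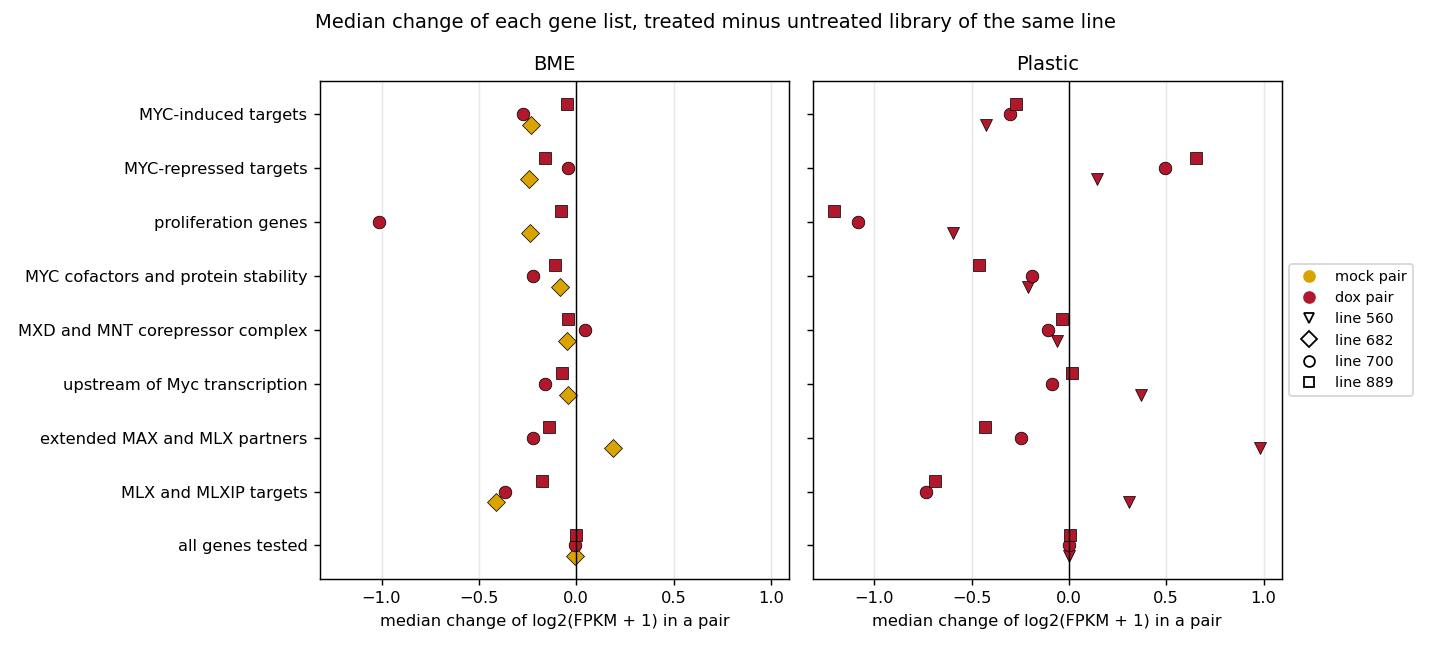
Median change of log2(FPKM + 1) over the tested genes of each list, from the untreated to the treated library of the same line, with 1 point per pair (the mock pair in yellow). On plastic the 50 MYC-induced genes lie between -0.43 and -0.27, the 14 proliferation genes between -1.21 and -0.60 and the 8 MYC-repressed genes between 0.15 and 0.65, while the medians of all genes tested lie within 0.01 of 0.

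Genes that act on the network were examined next. Of 18 MYC cofactors and stability factors, the median change was -0.17 on plastic and -0.19 in BME. By pair, the BME medians were -0.22 and -0.11 in the dox pairs of lines 700 and 889 and -0.09 in the mock pair. In this list, 5 of 18 were lower in every plastic pair (18.7% of all genes) and 10 of 18 in both BME dox pairs (29.5%). Aurka, a mitotic kinase that stabilizes MYC proteins, had a change of -1.08 (SE 0.31, limma adjusted p 0.468) on plastic and was not called. The acetyltransferase Kat2a was lower in 5 of 5 dox pairs, with -0.65 (SE 0.24) on plastic and -0.19 (SE 0.18) in BME, and 0.07 in the mock pair.

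The 10 corepressor genes listed for MXD and MNT, which are genes of the SIN3 complex and Ncor1, had medians of 0.02 on plastic and -0.01 in BME. With plastic given first, the scaffold Sin3b had changes of 0.11 (SE 0.27) and 0.14 (SE 0.12). The deacetylase Hdac1 had 0.15 (SE 0.24) and 0.24 (SE 0.16), and Sap30 had -0.45 (SE 0.36) and -0.19 (SE 0.20). Sap18 was at -0.71 (SE 0.21, limma adjusted p 0.485) on plastic and -0.01 (SE 0.16) in BME. No gene of this list was called in either environment.

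The 14 genes known to act upstream of Myc transcription had medians of 0.08 on plastic and -0.14 in BME. The plastic pairs of lines 560, 700 and 889 had medians of 0.37, -0.09 and 0.02, so their directions differed. Ctnnb1, the WNT effector β-catenin, was at 149, 286 and 278 FPKM untreated on plastic and 859, 574 and 1205 with dox (change 1.88, SE 0.38, unadjusted p 0.00207, limma adjusted p 0.282). In BME it was at 395, 402 and 304 FPKM untreated, 374 in the mock library and 355 and 717 with dox, so the dox lines lay on both sides of their partners. Pvt1, the noncoding gene beside Myc, was lower in 5 of 5 dox pairs (-0.52, SE 0.32 on plastic and -0.31, SE 0.38 in BME), and the mock pair of Pvt1 gave -0.25.

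Of the further partners, Mlxip was at 5.47 to 11.8 FPKM on plastic and 13.1 to 17.4 in BME, and Mlxipl at 0.145 to 3.85 and 12.9 to 27.9. Mga, a large factor that pairs with MAX, was at 1.24 to 3.50 and 1.70 to 5.42 FPKM. On plastic the changes were 0.10 for Mga, 0.06 for Mlxip and 0.56 for Mlxipl, and in BME -0.38, -0.20 and 0.25, and none was called. Mga and Mlxip were higher with dox in line 560 on plastic (1.01 and 0.98) and lower in the other 4 dox pairs, whereas Mlxipl was higher in 4 of 5. Arrdc4, a target of MLX and MLXIP, was lower in 5 of 5 dox pairs (-0.69, SE 0.30 on plastic and -0.39, SE 0.54 in BME), and Txnip, the other target, was higher in 2 and lower in 3. For Arrdc4 the mock pair gave -0.62, beside -0.36 and -0.21 in the BME dox pairs of lines 700 and 889.

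Likeness to a member was measured as the correlation of log2(FPKM + 1) across 12 libraries after centring each environment, over 11976 other genes. The points share lines and normalization, and the difference between dox and control libraries is kept, so r is a description. Closest to Myc were Pprc1 (r 0.93), Arrdc4 (0.92), Gtpbp4 (0.91), Pvt1 (0.91) and Twnk (0.91). Closest to Mxd1 were Apol9b (0.94), Tgm4 (0.94) and Btg1 (0.92), and closest to Mxi1 were Irf7, Nampt and Gss (each 0.90). Among the members themselves, without Mycn, Mxd1 and Mlx were most alike (r 0.88) and Mxd1 and Mxi1 came next (0.68). Least alike were Mxd3 and Mnt (-0.81), then Mxd4 and Mxi1 (-0.68), and Myc and Max gave -0.46.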

How the data were processed

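RNA-Seq was performed on 12 libraries. Per the submitters' processing notes and the study's methods, the authors used kallisto and DESeq2 with mm9 (versions and transcript annotation are not given in the sources used here) and deposited FPKM in 1 table per environment, normalized over its 6 libraries. The authors' deposited comparison tables hold a mean normalized count (a signal over all libraries), which was used, and a log2 fold change, its standard error, a Wald statistic and the p-values before and after adjustment, which were not used. FPKM corrects for length and for a scale per library. How far that scale takes up a shift in RNA composition was not tested.

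The deposited values are not counts. Reads were rebuilt from FPKM, the authors' mean normalized count and the worth of 1 read in each library, with 79.8% to 88.7% of a library's low values whole within 0.05. Mean normalized counts of up to 20 were taken as low. The rebuilt reads served to give depth and for limma-voom.

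Genes with a mean of at least 0.5 FPKM were tested on log2(FPKM + 1), which understates the change of low genes: 12996 in BME, 12333 on plastic and 11977 in both. Dox was compared with control libraries in limma 3.58.1 (R 4.3.3, eBayes with trend, two-sided, no block, Benjamini-Hochberg adjustment over all genes tested), on 2 dox and 4 control libraries in BME and 3 and 3 on plastic. Calls needed an absolute change over 1 together with an adjusted p under 0.05. The environment difference was the interaction term. The ratio was compared by exact permutation of libraries. Python 3.11.15, numpy 2.4.6, pandas 2.3.3, scipy 1.17.1 and matplotlib 3.10.9 were used. The fits were tested on simulated data.

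The line numbers in the titles pair the libraries: deviations from the group means correlated within lines at 0.18, 0.61 and 0.66 in BME (lines 682, 700 and 889) and 0.46, 0.61 and 0.25 on plastic (lines 560, 700 and 889). Nothing states that cultures were replicated within a line, so the p-values measure the spread between these libraries. Members and 8 further lists were chosen with earlier results of these data known. From each list the 3 genes with the largest rises and the 3 with the largest falls by the median of 5 dox pairs could be named, and the 5 genes most like Myc and 3 each most like Mxd1 and Mxi1. Alternatives were a pseudocount of 0.1, no filter, the line as a block, centring on all genes, limma-voom, leaving out each library, other placements of the mock library, and lines 700 and 889 alone.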

Additional observations from a re-analysis of the deposited data

Results flagged for a closer look

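Mnt met the rule of opposite directions: both dox pairs in BME were below 0 (-0.10 for line 700 and -0.00 for line 889) and all 3 pairs on plastic were above 0 (0.54, 0.05 and 0.25). The difference between environments was tested, at 0.28 (SE 0.29, limma adjusted p 1.00), and was not called. It was 0.05 without the BME dox library of line 889 and 0.51 without that of line 700. Of 11 values with 4 control libraries in BME, 0 had a library set apart from the rest, where chance would give 0.55.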

How the results depend on the processing

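No member was called in any alternative. On plastic the change of Mxd1 kept its direction in 11 of 11 alternatives, from 0.99 to 1.41, with an unadjusted p under 0.05 in 11 of 11 and adjusted p from 0.158 to 0.835. Mxi1 (0.56 to 0.99) and Mlx (0.49 to 0.90) also kept theirs, at that unadjusted p in 7 and 5 of 11. The ratio of Myc to its antagonists kept its sign in every alternative. Its smallest exact permutation p was 0.1 on plastic and 0.2 in BME, each the lowest that the setting behind it could give. In BME its difference of -0.29 ranged from -0.50 (without the dox library of line 700) to -0.09 (without that of line 889), and was -0.17 and -0.45 without the untreated libraries of lines 700 and 889. Without Mxi1 in the pool it was -0.16 in BME and -0.43 on plastic.

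With the line as a block (the pairing by line), the BME changes reversed to 0.044 for Mycn, -0.10 for Mxd1 and -0.073 for Mxi1, and the environment differences to 0.021 for Myc and -0.16 for Mxd4. Members at an unadjusted p under 0.05 on plastic numbered 2 in place of 3, as Mlx moved from 0.0447 to 0.0524. The ratio was then -0.24 in BME (exact sign-flip p = 0.5) and -0.69 on plastic (exact sign-flip p = 0.250). With 2 pairs in BME and 3 on plastic, the sign flip cannot go below these values. With the mock library in the dox arm, the BME changes were 0.12 for Mycn, -0.020 for Mxd1 and -0.10 for Mxi1, and the differences 0.012 for Myc and -0.15 for Mxd4. With it left out, the difference for Myc was 0.031. With lines 700 and 889 alone, the differences were 0.013 for Mxd3 and -0.13 for Mxd4.

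Of all genes, 3 were called in BME, against 1 with a pseudocount of 0.1, 1 with limma-voom and 0 with the block, the mock library left out or in the dox arm. On plastic 4 were called, against 10 with a pseudocount of 0.1, 0 without a filter, 7 with the block and 10 with limma-voom. For the difference 0 were called, against 5 without a filter. Members at an unadjusted p under 0.05 for the difference numbered 0, against 2 with the block, 1 with the mock library in the dox arm and 2 with lines 700 and 889 alone. The cause was not tested.

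Leaving out 1 library at a time gave 0 to 37 called genes in BME (37 without the dox library of line 700) and 0 to 55 on plastic (55 without that of line 700). Members at that unadjusted p numbered 0 to 2 in BME (2 without the dox library of line 889) and 1 to 2 on plastic (1 without either library of line 889). BME changes ranged from -0.58 to 0.077 for Myc, -1.29 to 0.25 for Mycn, -1.06 to 0.086 for Mycl, -0.14 to 0.052 for Max, 0.36 to 0.86 for Mxd1, -0.70 to 0.039 for Mxd4, -0.14 to 0.42 for Mxi1 and -0.23 to 0.23 for Mnt. Mxd3 ranged there from -1.26 (without the dox library of line 889, unadjusted p 0.0196) to -0.08 (without that of line 700). On plastic Mycl ranged from -0.18 to 0.76, Mxd3 from -0.94 to -0.22, Max from 0.02 to 0.29, Mnt from 0.13 to 0.36, Mxd4 from -0.39 to -0.17 and Myc from -0.40 to -0.18. The differences ranged from -0.36 to 0.30 for Myc, -0.61 to 0.57 for Mxd3, -0.31 to 0.43 for Mxd4, 0.37 (without the plastic dox library of line 700) to 0.88 for Mxd1, 0.39 (without the BME dox library of line 889) to 0.95 for Mxi1, 0.050 to 0.51 for Mnt, 0.062 to 0.33 for Max, 0.12 to 0.53 for Mlx and 0.22 to 1.37 for Mycl. Where an arm held 1 library, it was taken to vary like the others. The median of the MYC-induced genes kept its sign in 12 of 12 alternatives in BME (-0.28 to -0.02) and 11 of 11 on plastic (-0.49 to -0.32), that of the proliferation genes in 11 of 12 (-1.39 to 0.01, above 0 without the dox library of line 700) and 11 of 11 (-1.41 to -0.71), and that of the MYC-repressed genes in 7 of 12 (-0.37 to 0.40) and 11 of 11 (0.33 to 0.66). That of the MYC cofactors kept it in 12 of 12 (-0.32 to -0.13) and 11 of 11 (-0.32 to -0.12), that of the genes upstream of Myc in 11 of 12 (-0.22 to 0.01) and 10 of 11 (-0.02 to 0.20), and that of the corepressor genes in 11 of 12 (-0.08 to 0.06) and 8 of 11 (-0.06 to 0.05). Depth limits Mycn, at 1 to 150 rebuilt reads in BME, and Mxd3, at 11 to 120 on plastic.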
